A study of Mus musculus with 4 samples.

Results

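The 10 genes described here are the growth factor genes Igf1 and Igf2, the receptor gene Igf1r, the binding protein genes Igfbp3, Igfbp4, Igfbp5, Igfbp6 and Igfbp7, and the imprinted genes H19 and Dlk1. They were taken by symbol from the 31053 genes of the feature table, of which 24323 had a UMI (a unique molecular identifier, the tag that marks 1 captured RNA molecule). Single cells of the tibial and femur epiphyses of mice were profiled in 4 libraries, 1 for each genotype and age. The mutant (Sox9fl:fl AcanCreERT2/+) carried floxed Sox9 on both alleles and a tamoxifen-inducible Cre recombinase at the Acan locus, which drives it in cells that make the cartilage proteoglycan aggrecan, and it was sampled on postnatal day 19 and day 13. The wild type was sampled on postnatal day 19 and day 13. The text of the series also speaks of older mice and of a further genotype with Sox8 mutated beside Sox9; the sample labels name neither, and every mutant value here rests on the genotype in the labels. The sources used here do not give the tamoxifen schedule, the strain, the number of animals behind a library or whether the wild type received tamoxifen, and Liberase digestion freed the cells of every group.

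Igf1 and Igf2 encode secreted growth factors that signal through the receptor tyrosine kinase encoded by Igf1r, and in the growth plate this pathway drives the proliferation and enlargement of chondrocytes. Binding proteins of the Igfbp family hold the factors in the matrix or the circulation and can either restrain or aid their action. H19 is a long noncoding RNA expressed from the maternal allele and Igf2, its neighbour, is expressed from the paternal allele, under a shared imprinting control region. Dlk1 is another paternally expressed gene; it encodes a transmembrane protein related to the Notch ligands, and like Igf2 and H19 it is known for high expression in fetal tissues that declines after birth.

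In the GRCm38 assembly with GENCODE M21 annotation, H19 spans chr7:142575529-142578143 and Igf2 spans chr7:142650766-142666816, both on the minus strand and 72622 bases apart. Igf1r is on the same chromosome at chr7:67952827-68233668. Igf1 lies at chr10:87858265-87937042 and Dlk1 at chr12:109452823-109463336, both on the plus strand. Igfbp3 lies at chr11:7206086-7213923 and Igfbp4 at chr11:99041244-99054392. Igfbp5 is at chr1:72857932-72874884, Igfbp6 at chr15:102144362-102149511 and Igfbp7 at chr5:77349240-77408041. The annotated protein coding gene Gm49394 overlaps Igf2 on the same strand and had 0 UMIs in chondrocyte-like cells of every library. The sources used here do not say how reads shared by the pair were counted, so the level of Igf2 relative to that of other genes is uncertain.

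The H19 and Igf2 transcripts each hold a microRNA hairpin, and the mature sequences are shown because these microRNAs are cut from the host transcripts whose levels follow. The bases of the seed (positions 2 to 8), which pairs with targets, are in capitals, and the sequences are those of RefSeq on GRCm38.p6.
mmu-miR-675-5p, within H19: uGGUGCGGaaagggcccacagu
mmu-miR-675-3p, within H19: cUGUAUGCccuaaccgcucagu
mmu-miR-483-5p, within Igf2: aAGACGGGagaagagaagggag
mmu-miR-483-3p, within Igf2: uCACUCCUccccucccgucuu
No seed is shared among the 4. The libraries capture polyadenylated RNA, so the values below are those of the host transcripts and not of the microRNAs.

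The libraries held 8053 to 12714 barcodes with 70507107 to 76080803 UMIs each, and 6240 to 9699 cells per library were kept, with median depths of 5332 to 9665 UMIs. Between 19 and 44 barcodes were shared by any pair of libraries. Clustering without the 10 genes gave 31 clusters, which were named from marker lists, so these names are rebuilt and may differ from those of the study. Chondrocyte-like cells numbered 1133 and 1047 in the mutant of day 19 and day 13, against 1051 and 4268 in the wild type of day 19 and day 13. The 26 chondrocyte markers summed to 83050 and 76631 CPM (UMIs per 1000000 UMIs of the class in that library) in the mutant of day 19 and day 13, against 113859 and 117047 CPM in the wild type, with none of the 26 at 0. This list holds Sox9 itself and also served to name the clusters, so the sums are no separate check of the name. Class membership is thus not independent of changes in the listed genes between genotypes. Sox9, the targeted gene and a master regulator of cartilage, stood at 189 and 206 CPM in mutant chondrocyte-like cells of day 19 and day 13, against 456 and 359 CPM in wild-type cells of day 19 and day 13. These are levels of all Sox9 RNA captured near its 3′ end, and the sources used here do not name the floxed exons.

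Chondrocyte-like cells comprised 6 clusters whose shares differed between libraries. Cluster 2, led by the articular genes Prg4 and Cilp, made up 29.4% and 35.4% of them in the mutant of day 19 and day 13, against 19.2% and 8.18% in the wild type of day 19 and day 13. Cluster 29 (C1qtnf3, Ppa1, Il17b) made up 0.0883% and 1.34% in the mutant, against 19.98% and 18.0% in the wild type. Clusters 3 (Frzb, Matn1), 4 (Pcp4, Sfrp5, Ucma), 5 (the hypertrophic genes Col10a1 and Ihh) and 21 (cycling cells) held 50 or more cells in every library, as did cluster 2. A further 3 skeletal clusters, mostly of mutant cells, were left unnamed: cluster 1 (Myoc, Pi15), cluster 6 (Postn, Tnn, Tnc) and cluster 7 (Cryba2, Mmp13, Ibsp, Bglap). In clusters 1 and 6 the 10 leading genes held 1 marker of another class (fibroblast/tendon and adipogenic stroma) and 0 chondrocyte markers. In cluster 7 they held 3 osteoblast markers and 1 chondrocyte marker. Yet 19, 16 and 19 chondrocyte markers were at least 3-fold above blood clusters in clusters 1, 6 and 7. With these 3 clusters the cells numbered 3397 and 4001 in the mutant of day 19 and day 13, against 1107 and 4428 in the wild type. Results are also given for this wider set.

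Across the 7 named classes with 50 or more cells in every library, Igf2, H19 and Dlk1 had their highest mean level in chondrocyte-like cells. Igf1, Igfbp3, Igfbp4, Igfbp5, Igfbp6 and Igfbp7 had theirs in fibroblast/tendon-like cells, and Igf1r in neutrophil-like cells. Classes are clusters of the same cells, so this order is a description with no test. The unnamed skeletal clusters together also held 50 or more cells in every library and were not ranked. With them added to the chondrocyte-like class, H19 moved from 1282 and 1275 to 1296 and 1405 CPM in the mutant of day 19 and day 13. In the wild type it moved from 637 and 1363 to 634 and 1370 CPM. Thus H19 in the unnamed clusters was not below the class in the mutant.

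Igf1 averaged 1192 CPM over the 4 libraries in fibroblast/tendon-like cells (range 595 to 1845), 327 CPM in macrophage-like cells (261 to 355) and 37.2 CPM in chondrocyte-like cells (3.91 to 72.4). The ranges of these 3 classes did not overlap, whereas those of the 4 lower classes overlapped each other and the chondrocyte-like one. Igf1r averaged 133 CPM in neutrophil-like cells (93.0 to 180), 63.5 CPM in chondrocyte-like cells (53.9 to 76.7) and 47.4 CPM in fibroblast/tendon-like cells (39.2 to 53.3), again without overlap between neighbours in the order.

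H19 averaged 1139 CPM in chondrocyte-like cells (637 to 1363) and 596 CPM in fibroblast/tendon-like cells (157 to 811). Dlk1 averaged 414 CPM (151 to 662) and 141 CPM (51.3 to 354) in the same classes, and Igf2 averaged 55.5 CPM (27.1 to 78.0) and 22.4 CPM (6.03 to 33.3). For these 3 imprinted genes the ranges of the first and second class overlapped.

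In fibroblast/tendon-like cells, Igfbp4 averaged 1154 CPM (974.8 to 1348), Igfbp5 1438 CPM (961 to 1663), Igfbp6 1309 CPM (1008 to 1688) and Igfbp7 3506 CPM (3162 to 3870). Each of these 4 ranges lay above that of the next class. In chondrocyte-like cells the means were 124 CPM for Igfbp4, 83.4 CPM for Igfbp5, 22.7 CPM for Igfbp6 and 1634 CPM for Igfbp7. Igfbp3 averaged 26.7 CPM in fibroblast/tendon-like and 3.13 CPM in chondrocyte-like cells, with overlapping ranges. Among classes with fewer than 50 cells in some library, endothelial-like cells had the most Igfbp3, at 636 and 779 CPM in the mutant of day 19 and day 13, against 335 and 985 CPM in the wild type of day 19 and day 13, the 335 CPM from 28 cells.

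**Figure D1:**
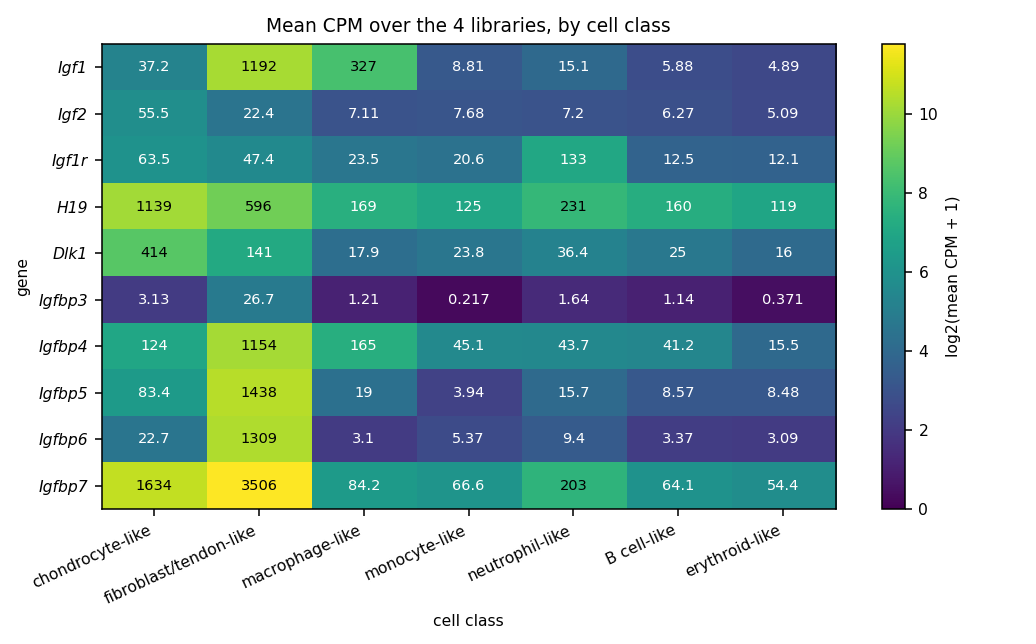
Mean level of each of the 10 genes (rows, CPM averaged over the 4 libraries and printed in each cell, colour as log2 of mean CPM + 1) in the 7 cell classes (columns). Among these 7 classes Igf2, H19 and Dlk1 are highest in chondrocyte-like cells, at means of 55.5, 1139 and 414 CPM, and most binding protein genes in fibroblast/tendon-like cells. The unnamed skeletal clusters are not shown.

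The design sets Sox9 mutant epiphyses against those of the wild type. In mutant chondrocyte-like cells, Igf1 and all 5 binding protein genes rose, whereas Igf2, Igf1r, H19 and Dlk1 did not pass the test, so 6 of the 10 genes were called and all 6 were higher. Over all 13508 genes tested, 8.59% were called higher, 6.72% lower and 15.3% either way, or 1160 genes higher and 908 lower. With plain library sizes in place of TMM scaling the median log2 change over all genes was 0.19, and 1704 genes were called higher and 484 lower, while the same 6 of the 10 genes were called. The 10 genes all passed the filter on low counts. The test was edgeR's quasi-likelihood fit on UMIs summed per library, with genotype and age as additive terms and Benjamini-Hochberg adjustment over all genes. With 1 library per group, this fit has 1 residual degree of freedom, beside 8.11 prior degrees of freedom borrowed from all genes. Its p-values rest on departure from additive effects and on dispersion (spread beyond counting error) shared across genes, not on the spread between mice. The fit is set beside ratios at each age whose 95% intervals cover counting error only. Ratios of CPM at a single age had a median over genes of 0.05 (log2, mutant over wild type, 7356 genes) on day 19 and 0.20 (7364 genes) on day 13, and the ratios of the 10 genes are to be read against these shifts.

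**Figure D2:**
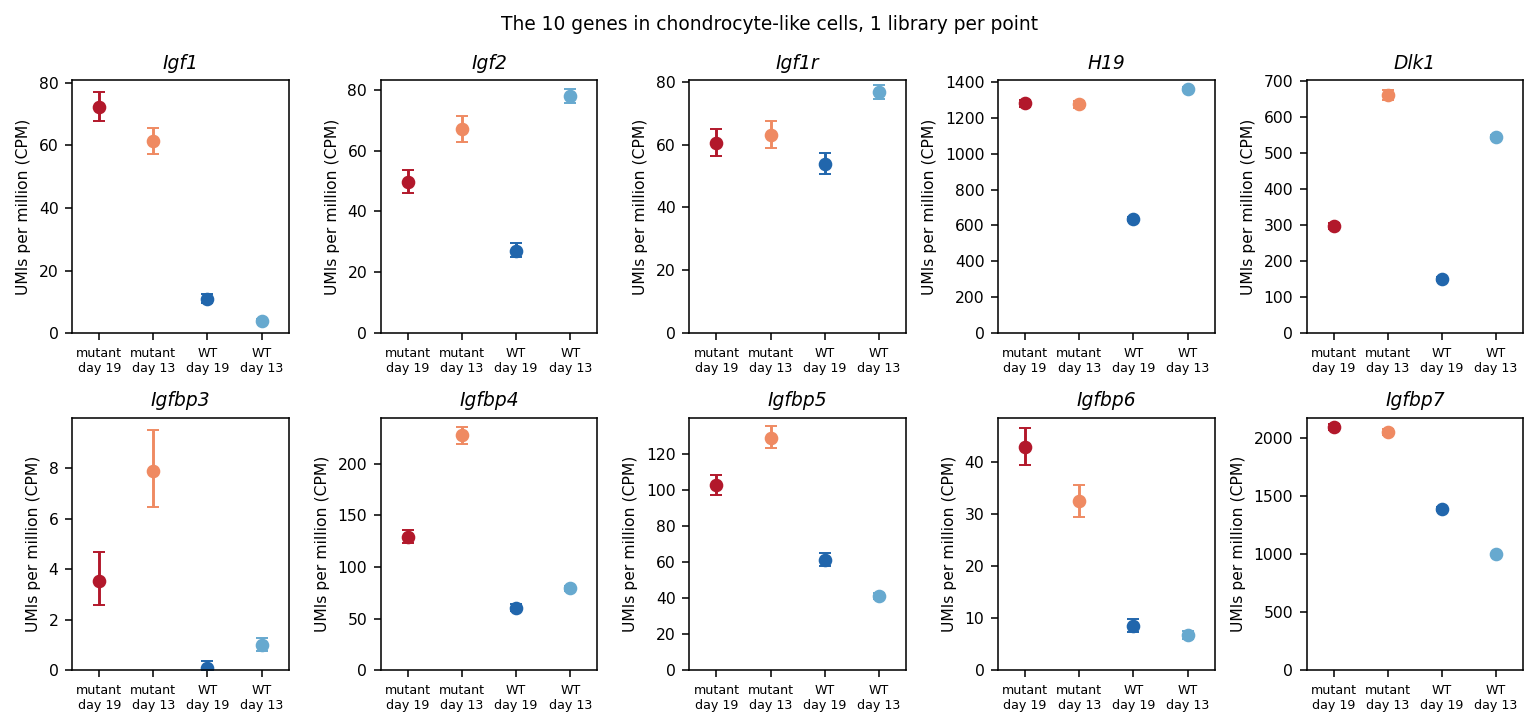
Level of each gene (CPM of summed UMIs, axes from 0) in chondrocyte-like cells of the 4 libraries, mutant left of wild type and day 19 left of day 13, with bars for the exact 95% counting interval. For Igf1 and the 5 binding protein genes both mutant libraries lie above both wild-type libraries; for Igf2, H19 and Dlk1 the wild-type library of day 19 is the lowest.

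Among the growth factors, Igf1 stood at 72.4 and 61.4 CPM in mutant chondrocyte-like cells of day 19 and day 13, against 10.9 and 3.91 CPM in wild-type cells of day 19 and day 13. Both mutant libraries were above both wild-type libraries. The fitted log2 change was 3.17 ± 0.24 (SE derived from the F statistic, adjusted p = 8.44e-05, edgeR). The ratio was 6.62-fold on day 19 (log2 2.73, 95% interval 2.51 to 2.95). On day 13 the wild-type level was not above that in neutrophil-like cells of the same library, which stood at 5.10 CPM (4 UMIs), so no fold is read from it; the log2 ratio of all UMIs was 3.97. In the other libraries neutrophil-like cells held 18.4 and 37.0 CPM of Igf1 in the mutant of day 19 and day 13 and 0 CPM in the wild type of day 19, each below the chondrocyte-like level.

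The share of cells with an Igf1 UMI, after each cell was thinned to 2000 UMIs, was 9.28% and 8.44% in mutant chondrocyte-like cells of day 19 and day 13, against 2.22% and 1.08% in wild-type cells. Unthinned shares were 20.04% and 19.5% in the mutant, against 8.28% and 3.84% in the wild type, at median depths of 9782 and 11017 UMIs in the mutant, against 16760 and 11802 UMIs in the wild type of day 19 and day 13. Thinning left out 17 to 96 cells per library. In neutrophil-like cells, which are not known as a source of Igf1, the thinned shares were 2.75% and 4.14% in the mutant of day 19 and day 13, against 0.00% (0 of 397 cells, exact binomial 95% upper bound 0.925%) and 0.76% (1 of 132 cells, 0.0192% to 4.15%) in the wild type of day 19 and day 13. Their median depths were 2450 and 2131 UMIs in the mutant, against 3783 and 1858 UMIs in the wild type. The share in wild-type chondrocyte-like cells of day 13 was within the interval of the neutrophil-like share of that library and is read as background, and the shares in the other 3 libraries were above those of their neutrophil-like cells.

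Igf2, the growth factor best known from fetal growth, stood at 49.7 and 66.97 CPM in the mutant of day 19 and day 13, against 27.1 and 78.0 CPM in the wild type of day 19 and day 13. The values of the genotypes overlapped, and the wild-type library of day 19 was the lowest. The fitted genotype change was 0.13 ± 0.25 on the log2 scale (adjusted p = 0.772, edgeR). The single-age log2 ratio was 0.88 (0.71 to 1.04) on day 19 and -0.22 (-0.33 to -0.12) on day 13.

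Igf1r stood at 60.5 and 63.0 CPM in the mutant, against 53.9 and 76.7 CPM in the wild type of day 19 and day 13. It was the steadiest of the 10 genes in chondrocyte-like cells over the 4 libraries by the ratio of its highest to its lowest value, and the values of the genotypes overlapped. The fitted log2 change was -0.24 ± 0.16 (adjusted p = 0.359, edgeR).

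Igfbp3 encodes the main carrier of these factors in the circulation. It was the rarest of the 10 genes, with 47 and 106 UMIs in mutant chondrocyte-like cells of day 19 and day 13, against 2 and 57 UMIs in wild-type cells, or 3.53 and 7.87 CPM against 0.10 and 1.004 CPM. Both mutant libraries were above both wild-type ones, and the fitted log2 change was 3.18 ± 0.43 (adjusted p = 0.00165, edgeR). Neutrophil-like cells averaged 1.64 CPM of Igfbp3 (range over the libraries 0 to 3.24), which overlapped the chondrocyte-like range (0.10 to 7.87). The part of such background in the Igfbp3 values was not tested. The day 19 ratio rested on 2 wild-type UMIs and had a wide interval (log2 5.11, 3.18 to 8.20), while that of day 13 was 2.97 (2.49 to 3.46).

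Igfbp4, whose protein releases the growth factors when cut by the protease encoded by Pappa, stood at 129 and 228 CPM in the mutant, against 60.6 and 79.3 CPM in the wild type of day 19 and day 13. The lower mutant value was above the higher wild-type value. Its fitted log2 change was 1.13 ± 0.13 (adjusted p = 0.000754, edgeR), with 2.13-fold and 2.87-fold ratios on day 19 and day 13.

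Igfbp5, whose protein binds the matrix and is abundant in bone, stood at 102 and 129 CPM in the mutant, against 61.4 and 41.1 CPM in the wild type of day 19 and day 13. The genotypes did not overlap, with a fitted log2 change of 1.02 ± 0.18 (adjusted p = 0.00568, edgeR). The counting intervals of the ratio at the 2 ages did not overlap, at log2 0.74 (0.63 to 0.85) on day 19 and 1.65 (1.56 to 1.74) on day 13.

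Igfbp6, whose protein prefers the Igf2 product, stood at 42.9 and 32.5 CPM in the mutant, against 8.54 and 6.80 CPM in the wild type of day 19 and day 13. The fitted log2 change was 2.11 ± 0.16 (adjusted p = 7.85e-05, edgeR). Its single-age ratios were close to each other, 5.02-fold on day 19 and 4.79-fold on day 13. Neutrophil-like cells averaged 9.40 CPM of Igfbp6 (range over the libraries 0.68 to 26.9), which overlapped the chondrocyte-like range (6.80 to 42.9). The part of such background in the Igfbp6 values was not tested.

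Igfbp7 encodes a secreted matrix protein that binds the growth factors weakly. It stood at 2096 and 2054 CPM in the mutant, against 1389 and 999 CPM in the wild type of day 19 and day 13, and its log2 change of 0.64 ± 0.18 was the smallest of the 6 called (adjusted p = 0.0414, edgeR). Among all skeletal-lineage cells it was 0.37, with an adjusted p of 0.164, and was not called.

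The regions before the annotated starts of 3 of the genes that rose together, Igfbp3, Igfbp4 and Igfbp6, are shown so that their sequence can be seen beside the values. Each is the 250 bases before the RefSeq start on GRCm38.p6, written 5′ to 3′ on the strand of the gene, with the letters TATAAA, or TTTATA where they lie on the opposite strand, in capitals.
Igfbp3, chr11:7213924-7214173, minus strand: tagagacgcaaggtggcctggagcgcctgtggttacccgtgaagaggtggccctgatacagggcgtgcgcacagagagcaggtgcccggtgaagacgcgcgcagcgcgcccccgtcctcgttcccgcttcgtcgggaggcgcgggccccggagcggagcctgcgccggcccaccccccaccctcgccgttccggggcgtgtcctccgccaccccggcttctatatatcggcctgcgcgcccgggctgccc
Igfbp4, chr11:99040994-99041243, plus strand: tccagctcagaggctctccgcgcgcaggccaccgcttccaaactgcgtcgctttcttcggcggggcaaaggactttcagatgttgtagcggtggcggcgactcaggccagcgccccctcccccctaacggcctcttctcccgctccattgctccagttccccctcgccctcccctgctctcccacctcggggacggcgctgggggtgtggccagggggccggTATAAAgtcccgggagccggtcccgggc
Igfbp6, chr15:102143936-102144185, plus strand: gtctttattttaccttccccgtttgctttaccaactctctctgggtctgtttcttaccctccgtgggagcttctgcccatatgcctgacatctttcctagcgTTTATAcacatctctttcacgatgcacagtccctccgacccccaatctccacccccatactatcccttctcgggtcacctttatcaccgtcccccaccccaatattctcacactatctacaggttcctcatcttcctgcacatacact
RefSeq gave 12 such windows for 9 of the 10 genes. The letters TATAAA occurred on either strand in 2 of the 12, those of Igfbp4 and Igfbp6, against 12.4% of 32851 promoter windows of this length. Of the letters that SOX proteins are known to bind, ACAATG occurred in 1 window, of Igf2, and ACAAAG in 1 window, of Igf1, against 10.7% and 16.5% of all promoter windows. A match is a description of these letters and not a binding site.

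Of the imprinted genes, H19 stood at 1282 and 1275 CPM in mutant chondrocyte-like cells of day 19 and day 13, against 637 and 1363 CPM in wild-type cells of day 19 and day 13. The wild-type library of day 19 was the low one, and the other 3 lay close together. The fitted genotype change was 0.28 ± 0.27 on the log2 scale (adjusted p = 0.536, edgeR). The single-age log2 ratio was 1.01 (0.98 to 1.04) on day 19 and -0.10 (-0.12 to -0.07) on day 13.

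Dlk1 stood at 298 and 662 CPM in the mutant, against 151 and 545 CPM in the wild type of day 19 and day 13. Its levels separated by age rather than by genotype: both day 19 libraries lay below both day 13 libraries. The fitted genotype change was 0.45 ± 0.20 on the log2 scale (adjusted p = 0.167, edgeR), with single-age ratios of 0.98 (0.91 to 1.05) on day 19 and 0.28 (0.25 to 0.32) on day 13. The day 13 ratio is close to the median shift of that contrast.

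With age, only Dlk1 passed the test among the 10 genes: 1 of 10 was called lower and none higher, against 0.0666% of all genes called lower, 0.274% higher and 0.341% either way. Its fitted log2 change, day 19 over day 13, was -1.54 ± 0.20 (adjusted p = 0.0219, edgeR). Within the genotypes its log2 ratio was -1.15 (-1.21 to -1.10) in the mutant and -1.85 (-1.91 to -1.80) in the wild type. The call was lost with the 3 unnamed skeletal clusters included (-1.43, adjusted p = 0.0764, with 0.0129% of genes called lower) and in all skeletal-lineage cells (-1.39, adjusted p = 0.105). Igfbp4 (-0.64, adjusted p = 0.0936, edgeR) and Igfbp3 (-1.61, adjusted p = 0.205, edgeR) were also lower on day 19 in both genotypes but did not pass. Fitted age changes were above 0 for Igf1 (0.77), Igfbp5 (0.08), Igfbp6 (0.33) and Igfbp7 (0.21), and none of these passed.

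H19 and Igf2 were lower on day 19 in the wild type, by log2 ratios of -1.10 (-1.13 to -1.07) and -1.53 (-1.66 to -1.40). In the mutant the ratios were 0.01 (-0.02 to 0.04) for H19 and -0.43 (-0.58 to -0.28) for Igf2. The counting intervals of the genotypes did not overlap for either gene, and with 1 library per group the difference was not tested. The additive age effect did not pass for H19 (-0.59, adjusted p = 0.595) or Igf2 (-1.03, adjusted p = 0.150). The number of H19 UMIs per Igf2 UMI was 25.8 and 19.0 in the mutant of day 19 and day 13, against 23.5 and 17.5 in the wild type of day 19 and day 13, higher on day 19 in both genotypes.

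Because the make-up of the class differed between libraries, the ratios were also taken within the 5 clusters with 50 or more cells in every library. Cluster 29 was left out, with 1 and 14 cells in the mutant of day 19 and day 13, against 210 and 767 in the wild type. Its part in the class ratios was not tested. Igf1 was higher in the mutant in 5 of 5 clusters on day 13 (log2 2.72 to 5.44, with 1 wild-type count at the floor of 3 and, as in the whole class, low wild-type levels of at most 14.2 CPM). On day 19 it was above 0 beyond counting error in 4 of 5, and in cluster 2 it was -0.08, at 23.6 CPM in the mutant and 24.9 CPM in the wild type. The widest gap in level on day 19 was in cluster 3, with 201 CPM in the mutant and 10.1 CPM in the wild type. Igfbp6 was higher in the mutant in 5 of 5 clusters at both ages (0.68 to 3.28 on day 19 and 1.42 to 2.91 on day 13), and Igfbp4 was higher in 5 of 5 on day 19 (0.43 to 2.50). Igfbp3, Igfbp5 and Igfbp7 were not higher in every cluster. On day 19 Igfbp3 was above 0 beyond counting error in 2 of 5 clusters, with 3 at the floor and a lowest ratio of -0.30, and on day 13 in 3 of 5. Igfbp5 was above 0 beyond counting error in 3 of 5 clusters at both ages, with lowest ratios of -0.39 (cluster 2) on day 19 and -0.42 (cluster 5) on day 13. Igfbp7 was -0.18 in cluster 3 on day 19.

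**Figure D3:**
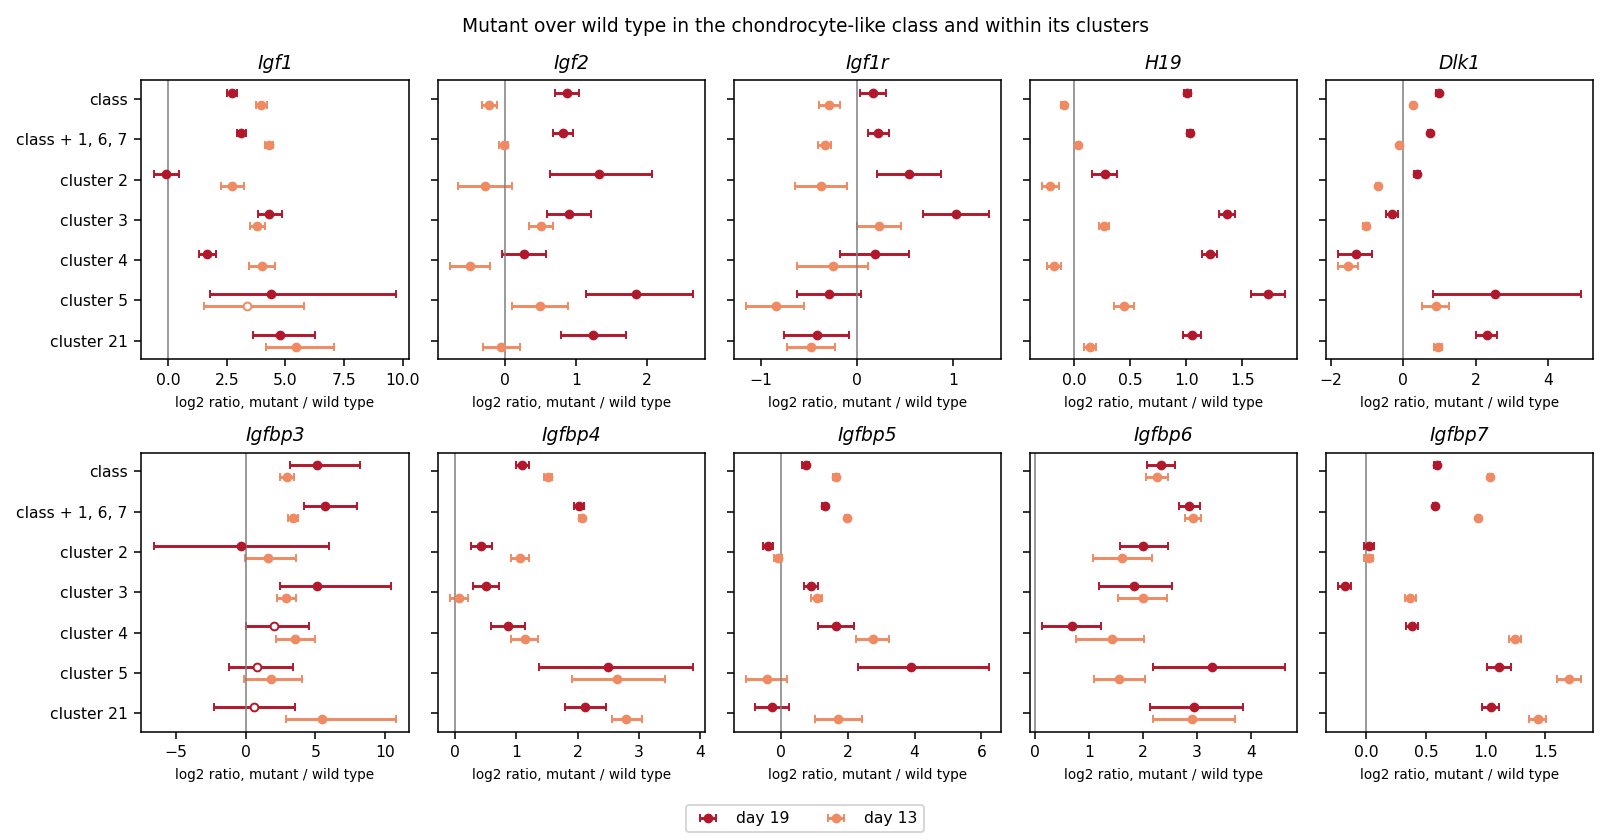
Ratio of mutant over wild type (log2 of CPM, with exact 95% counting intervals) for each gene in the chondrocyte-like class, in that class with the unnamed clusters 1, 6 and 7, and in each of 5 clusters, on day 19 (dark) and day 13 (light); open points have a count at the floor of 3 UMIs. Igfbp6 lies above 0 in 5 of 5 clusters at both ages, and Dlk1 lies on both sides of 0.

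Within clusters, H19 was higher in the mutant of day 19 in 5 of 5 clusters (log2 0.27 to 1.73), and in the wild type it was lower on day 19 than on day 13 in 5 of 5 (-1.37 to -0.87). On day 13 the genotype ratio of H19 ranged from -0.21 to 0.44. Cluster 4 is an example, at 2145 and 1788 CPM in the mutant of day 19 and day 13, against 929 and 2026 CPM in the wild type of day 19 and day 13.

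Dlk1 turned direction within clusters. It was lower in the mutant in clusters 2, 3 and 4 on day 13 (log2 -0.69, -1.02 and -1.51) and in clusters 3 and 4 on day 19 (-0.30 and -1.31), and higher in clusters 5 and 21 at both ages. Cluster 2, of which Dlk1 is a leading gene, held 1108 and 1616 CPM in the mutant of day 19 and day 13, against 845 and 2613 CPM in the wild type of day 19 and day 13. Cluster 2 was also a larger share of the mutant's chondrocyte-like cells, so the class level of Dlk1 and its make-up cannot be told apart. The fall with age held in 5 of 5 clusters in each genotype (-2.77 to -0.54 in the mutant and -4.42 to -1.63 in the wild type).

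**Figure D4:**
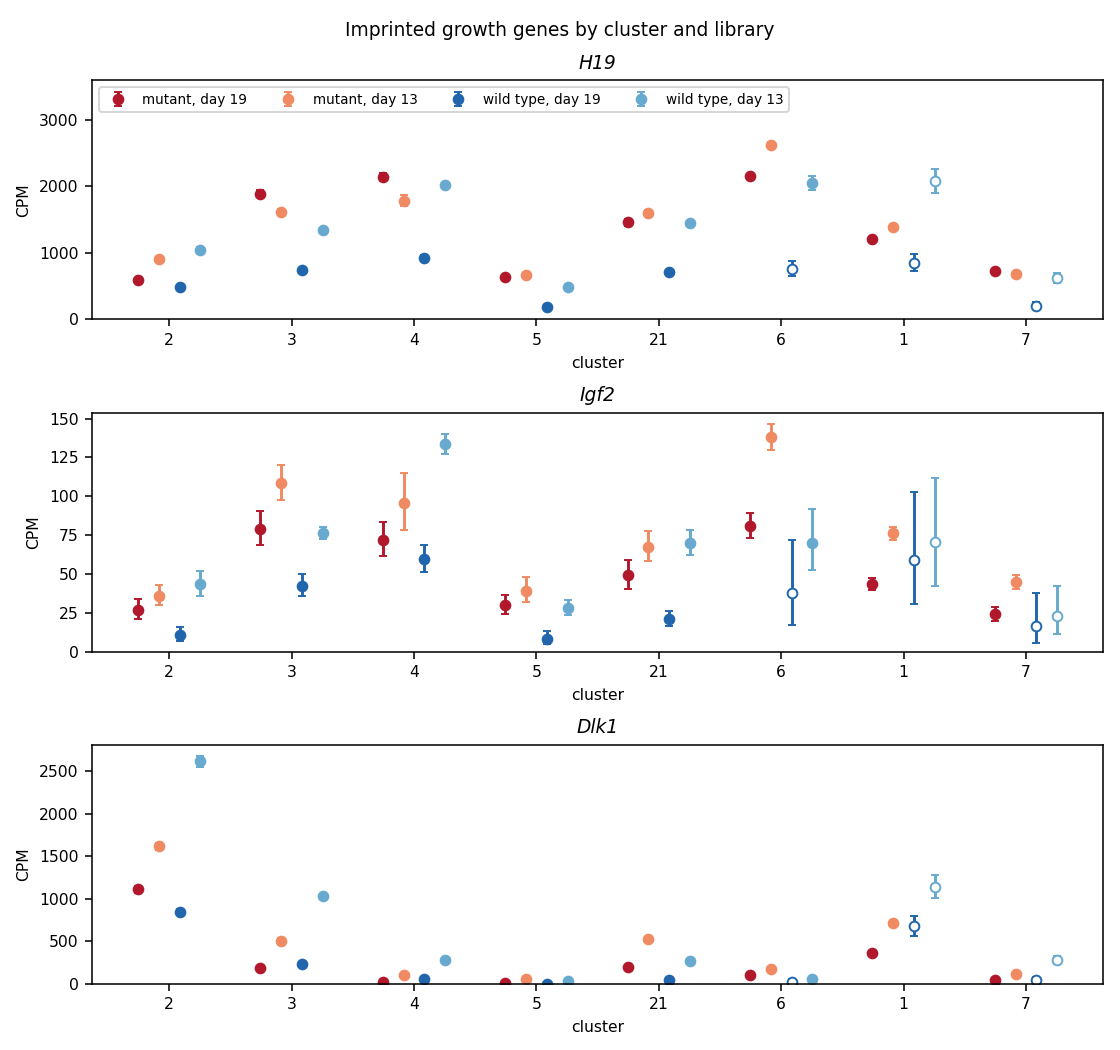
Levels of H19, Dlk1 and Igf2 (CPM of summed UMIs, with exact 95% counting intervals) in clusters 2, 3, 4, 5 and 21 of the chondrocyte-like class and the unnamed clusters 6, 1 and 7, for each library; open points have fewer than 50 cells. H19 of the wild type of day 19 is the lowest of the 4 libraries in each of clusters 2, 3, 4, 5 and 21, and Dlk1 is highest in cluster 2, with 1108 and 1616 CPM in the mutant of day 19 and day 13, against 845 and 2613 CPM in the wild type of day 19 and day 13.

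With the unnamed clusters 1, 6 and 7 included, the same 6 genes were called higher in the mutant, against 12.7% of 15498 genes called higher. Igf1 then stood at 106 and 115 CPM in the mutant, against 12.2 and 5.90 CPM in the wild type of day 19 and day 13 (log2 3.54 ± 0.24, adjusted p = 6.1e-05, edgeR). Igfbp4 and Igfbp6 had larger changes than in the narrower class, 1.86 and 2.70 on the log2 scale. Cluster 6 carried the most Igfbp6 of the 3 unnamed clusters, at 170 and 94.3 CPM in the mutant of day 19 and day 13, and cluster 7 the most Igfbp5, at 285 and 378 CPM in the mutant of day 19 and day 13.

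Markers of other cell types moved with these results. Igf1 and most binding protein genes are highest in fibroblast/tendon-like cells, and the 14 fibroblast/tendon markers summed to 7179 and 10486 CPM in mutant chondrocyte-like cells of day 19 and day 13, against 2063 and 3115 CPM in wild-type cells, with none at 0. The 14 osteoblast markers summed to 14176 and 19597 CPM in the mutant, against 4356 and 4781 CPM in the wild type of day 19 and day 13. Col1a1 is in both lists, so the sums are not separate. It stood at 3977 and 6327 CPM in the mutant, against 720 and 1413 CPM in the wild type of day 19 and day 13. The 7 markers Tnmd, Thbs4, Kera, Pi16, Dpt, Clec3b and Mfap5 summed to 94.9 and 89.6 CPM in the mutant, against 52.2 and 32.0 CPM in the wild type of day 19 and day 13. These sums are 3.17% and 3.46% of those in fibroblast/tendon-like cells of the same mutant libraries, against 1.39% and 0.76% in the wild type. The 7 were chosen after the data were seen, and Thbs4 carried much of their sum, at 65.5 and 60.4 CPM in the mutant of day 19 and day 13, against 44.9 and 9.79 CPM in the wild type. Tnmd stood at 6.46 and 9.13 CPM in the mutant, against 3.48 and 18.7 CPM in the wild type of day 19 and day 13. Markers outside the 7 reached larger shares of their fibroblast/tendon-like level. Scx was at 21.3% and 27.0% in the mutant of day 19 and day 13, against 2.94% and 1.85% in the wild type. Col1a1 was at 12.1% and 13.2% in the mutant, against 2.99% and 2.53% in the wild type, and Col3a1 at 9.73% and 15.1%, against 2.53% and 3.98%. Among the chondrocyte-like cells with no UMI of these 7 genes (75.1% and 71.1% of cells in the mutant of day 19 and day 13, against 79.5% and 84.8% in the wild type), the same 6 genes were called higher, with log2 changes of 3.36 for Igf1, 3.25 for Igfbp3, 0.98 for Igfbp4, 1.07 for Igfbp5, 2.13 for Igfbp6 and 0.61 for Igfbp7. Cells with UMIs of the other fibroblast/tendon markers or of osteoblast markers were not removed, and their part in these results was not tested.

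In fibroblast/tendon-like cells, where Igf1 is highest, it stood at 1845 and 1342 CPM in the mutant, against 987 and 595 CPM in the wild type of day 19 and day 13. Both mutant values were above both wild-type values, but the change did not pass (adjusted p = 0.0576, edgeR), and none of the 10 genes was called in this class, where 0.846% of genes were called. In macrophage-like cells Igf1 was 341 and 353 CPM in the mutant, against 355 and 261 CPM in the wild type of day 19 and day 13, with overlap.

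Outside the chondrocyte-like and the other skeletal cells, 10 tests of the 10 genes in 4 blood classes were called, all higher in the mutant. In neutrophil-like cells these were Igf1, Dlk1, Igfbp5 and Igfbp6, where 2.63% of genes were called higher. Igf1 had 91 and 54 UMIs in mutant neutrophil-like cells of day 19 and day 13, against 0 and 4 UMIs in wild-type ones (adjusted p = 0.00156, edgeR). Igfbp5 was 34.6 and 22.0 CPM in the mutant, against 1.01 and 5.10 CPM in the wild type of day 19 and day 13 (log2 change 3.89 ± 0.55, adjusted p = 0.000914, edgeR). Igfbp6 ranged from 0.68 to 26.9 CPM over the 4 libraries of this class. With so few wild-type UMIs of Igf1, Igfbp5 and Igfbp6, passing the filter on low counts rested on the mutant libraries, where these genes are higher. Dlk1 was 21.1 and 85.8 CPM in the mutant, against 3.04 and 35.7 CPM in the wild type of day 19 and day 13 (adjusted p = 0.00438, edgeR).

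Igfbp5 was also higher in macrophage-like cells, at 28.0 and 47.3 CPM in the mutant, against 0 and 0.84 CPM in the wild type of day 19 and day 13 (0.55% of genes called higher). Here too it passed the filter on low counts through the mutant libraries. In B cell-like cells Igfbp5 and Igfbp7 were called (1.54% of genes higher), and in erythroid-like cells Igf1, H19 and Igfbp7 (3.15% of genes higher). In monocyte-like cells none was called, where 0.622% of genes were. The 26 chondrocyte markers summed to 6092 and 8488 CPM in mutant neutrophil-like cells of day 19 and day 13, against 5572 and 14870 CPM in wild-type ones, so UMIs of cartilage genes were counted in this blood class in every library. In neutrophil-like, macrophage-like, B cell-like and erythroid-like cells the osteoblast and fibroblast/tendon lists, which share Col1a1, both summed to more in the mutant at each age. The same held in monocyte-like cells, where none of the 10 genes was called. There the osteoblast markers summed to 1427 and 5719 CPM in the mutant of day 19 and day 13, against 133 and 930 CPM in the wild type. In neutrophil-like cells the 14 osteoblast markers summed to 2774 and 5254 CPM in the mutant of day 19 and day 13, against 420 and 3269 CPM in the wild type, and the 14 fibroblast/tendon markers to 1657 and 2939 CPM, against 222 and 2126 CPM. In macrophage-like cells the osteoblast markers summed to 5041 and 3899 CPM in the mutant of day 19 and day 13, against 296 and 863 CPM in the wild type. The part of this RNA in the calls was not tested. DESeq2 called 3 of the 10. With plain library sizes 7 calls were made over these classes, and Igf1 (adjusted p = 0.0574, edgeR), H19 (0.469) and Igfbp7 (0.487) in erythroid-like cells and Igfbp7 (0.0602) in B cell-like cells were lost.

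With age, Dlk1 was called lower on day 19 in 4 blood classes, B cell-like (log2 -3.12), erythroid-like (-1.84), monocyte-like (-3.53) and neutrophil-like (-2.31), where 0.779%, 2%, 0.677% and 0.261% of genes were called lower. In monocyte-like cells Dlk1 had 9 and 40 UMIs in the mutant of day 19 and day 13, against 2 and 16 UMIs in the wild type. There it passed the filter on low counts through the day 13 libraries, where it is high. H19 was called lower in B cell-like (-1.87), erythroid-like (-1.51) and neutrophil-like cells (-1.52). Igf2 was called lower in erythroid-like cells, and Igfbp4 and Igfbp7 in monocyte-like cells. In erythroid-like cells Igf2 had 12 and 12 UMIs in the mutant of day 19 and day 13, against 11 and 9 UMIs in the wild type. With so few UMIs it passed the filter on low counts through the smaller day 13 libraries, where its level is high. In each of these 4 classes the 26 chondrocyte markers also summed to less on day 19 in both genotypes, for example to 2742 and 4122 CPM in mutant B cell-like cells of day 19 and day 13, against 2545 and 11387 CPM in wild-type ones. Their part in the calls was not tested. With plain library sizes Dlk1 (adjusted p = 0.0544, edgeR) and H19 (0.141) were lost in B cell-like cells, and Dlk1 (0.0600) and Igf2 (0.181) in erythroid-like cells. DESeq2 did not call H19 in B cell-like cells or Igfbp4 (adjusted p = 0.358) and Igfbp7 (0.0672) in monocyte-like cells, and gave no adjusted p for Dlk1 in erythroid-like and monocyte-like cells or for Igf2 in erythroid-like cells.

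Of the wider growth factor pathway, a list of 39 genes of which 35 were tested, 11 rose in mutant chondrocyte-like cells, 3 fell and 21 did not pass, and the list's median log2 change was 0.12 beside 0.01 over all genes. Over all genes 8.59% were called higher and 6.72% lower, and 6 of the 11 are Igf1 and the binding protein genes already counted. Besides Igf1 and the 5 binding proteins the risers included Stc1 (2.20), a secreted inhibitor of the Pappa protease, Htra1 (1.16), a serine protease that cuts binding proteins, Pappa itself (0.88) and the adaptor Shc1 (0.60). Pappa stood at 41.6 and 46.9 CPM in the mutant, against 24.1 and 18.8 CPM in the wild type of day 19 and day 13. The 3 that fell were Pappa2 (-1.39), the related protease, Stc2 (-0.74), a further Pappa inhibitor, and Grb10 (-0.47), an adaptor that restrains receptor signalling. Pappa2 stood at 5.49 and 9.95 CPM in the mutant, against 13.3 and 22.1 CPM in the wild type of day 19 and day 13.

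Of 30 imprinted genes, 27 were tested: 1 rose, 5 fell and 21 did not pass, with a median log2 change of -0.23, against 8.59% higher and 6.72% lower over all genes. With the unnamed clusters, 28 were tested, 1 rose and 8 fell. Over all 15498 genes tested in that wider set, 1970 were called higher (12.7%) and 1665 lower. In the narrower class Mest rose (0.64). Phlda2 (-2.11), Magel2 (-1.25), Cdkn1c (-0.87), which encodes an inhibitor of the cell cycle, and Kcnq1ot1 (-0.70) fell, as did Grb10. Cdkn1c stood at 729 and 827 CPM in the mutant, against 1010 and 1568 CPM in the wild type of day 19 and day 13. H19, Igf2 and Dlk1, by contrast, were among the 21 that did not pass. Of 11 genes of the Dlk1 and Notch list, 10 were tested, and Notch2 rose (0.59) and 9 did not pass, a share of risers near that of all genes. With the unnamed clusters 11 were tested: Notch2 (0.67) and the Notch ligand gene Jag1 (1.87) rose, and Dlk2 (-1.48), a relative of Dlk1, and Heyl (-2.07), a Notch target, fell. These calls stand beside the 1970 genes higher and 1665 lower of 15498 in the wider set.

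Over 28 summed profiles, 7 classes in 4 libraries, the genes with the most similar levels to Igf1 among 7676 were Gas6 (Pearson r = 0.94), Ecm1 (0.92), Mmp14 (0.92), Myof (0.91) and Igfbp4 (0.91). For Igf2 they were H19 (0.97), Dlk1 (0.96), Itga10, Capn6 and Edil3, and for Dlk1 they were Igf2 (0.96), H19 (0.95), Itm2a, Itga10 and Capn6. For H19 the list after Igf2 and Dlk1 was Capn6, Peg3 and Grb10. These correlations of log2(CPM + 1) are a description, since the profiles share libraries.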

How the data were processed

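The deposited matrices hold UMI counts per gene and barcode, made by the authors with Cell Ranger 3.1.0 per the file headers, on mm10 per the submitters' processing notes, which also name Seurat 3 with no role. Libraries were Chromium v3, per the labels' protocols; 1 library per group, 4 in all. The count columns were used unnormalized.

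Kept cells had at least 500 genes and no more than 15% mitochondrial UMIs, and cells with a Scrublet score above 0.25 were removed as doublets (the automatic threshold marked 0 to 293 cells per library), 85 to 243 per library. Cells were scaled to 10000 UMIs and clustered with scanpy 1.11.5 (Python 3.11.15): 2000 variable genes without the 10 described here (6 of which were among them), 30 components, 15 neighbours, Leiden resolution 1, no batch correction. A cluster was named where 3 or more markers of a list were among its 25 leading genes. By a second rule it was named chondrocyte-like where 10 or more chondrocyte markers were at least 3-fold above blood clusters. Clusters reached by the second rule stayed unnamed where another class had more markers than chondrocytes among the 10 leading genes. Blood, osteoblast or fibroblast/tendon clusters with 15 or more chondrocyte markers at that level also stayed unnamed. These thresholds were set after seeing the clusters. The 10 genes, lists and rules were chosen with earlier results of these data known, and patterns already seen in them are no independent support.

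UMIs were summed per library and class and tested with edgeR 4.0.16 (R 4.3.3; quasi-likelihood, genotype plus age, TMM scaling, filterByExpr, adjusted p under 0.05), tested on simulated data first. The fit reports no standard error, so each ± value is the absolute log2 change divided by the square root of its F statistic. DESeq2 1.42.0, other filters, scalings and cell sets were alternatives. Named genes are all 10 and, from the lists, up to 4 each way by size. CPM is per 1000000 UMIs of the class. Intervals are exact Poisson or binomial 95% intervals and, with the floor of 3 counts, cover counting error only. Annotation was matched by gene ID to GENCODE M21 (30934 of 31053 matched). Whether the samples in a group came from separate animals is not given, and no pairing was used. The sample labels' ages and genotypes were followed where the series text names others.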

Additional observations from a re-analysis of the deposited data

Results flagged for a closer look

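Among the 10 genes, 4 changed direction in chondrocyte-like cells between ages or genotypes, and with 1 library per group none of these differences was tested. Igf2 had a mutant over wild type log2 ratio of 0.88 on day 19 and -0.22 on day 13. Igf1r had 0.17 on day 19 and -0.28 on day 13. H19 had 1.01 on day 19 and -0.10 on day 13. Igfbp5 was lower on day 19 than on day 13 in the mutant, by a log2 ratio of -0.33, and higher on day 19 in the wild type, by 0.58. The wild-type library of day 19 had the deepest chondrocyte-like cells, with a median of 16760 UMIs, against 9782 to 11802 in the other 3, and depth moves with these flags without its part having been tested.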

How the results depend on the processing

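The 6 genotype calls in chondrocyte-like cells held under every alternative run except in all skeletal-lineage cells, where Igfbp7 was lost (0.37, adjusted p = 0.164, edgeR). No paired analysis was possible because each group has 1 library, and leaving out a library leaves no residual degree of freedom, so no such fit was made. Cell sets with the unnamed skeletal clusters, with the 10 genes among the variable genes, or without cells with a fibroblast marker UMI were chosen after seeing the data. The number of genes called by genotype, 2068, was 1056 with DESeq2, 3380 in all skeletal-lineage cells, 3635 with the unnamed clusters and 3134 with the 10 genes among the variable genes. The number called by age, 46, was 19 with RLE scaling, 496 with a filter of 1 UMI, 28 with 1000 genes or more per cell, 23 with at most 10% mitochondrial UMIs and 23 with the 10 genes among the variable genes. Of the 10 genes, 1 was called by age, but 6 with a filter of 1 UMI, 2 without cells with a fibroblast marker UMI, and 0 in all skeletal-lineage cells, with the unnamed clusters or with the 10 genes among the variable genes (edgeR; Dlk1 adjusted p = 0.105, 0.0764 and 0.0790). The 10 calls in other classes became 16 with a filter of 1 UMI, which lost Igfbp7 in erythroid-like cells (adjusted p = 0.0790, edgeR), 7 with plain library sizes and 3 with DESeq2. The 7 genes higher in the mutant at both ages were 3 within cluster 2.

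Single-age ratios (log2, mutant over wild type) turned sign, with counting intervals that left out 0, in these settings. On day 13, Igf2 was 0.17 with the 10 genes among the variable genes, 0.50 in cluster 3 and 0.49 in cluster 5. H19 on day 13 was 0.037 with the unnamed clusters, 0.26 with the 10 genes among the variable genes, and 0.26, 0.44 and 0.14 in clusters 3, 5 and 21. Dlk1 on day 13 was -0.42 in all skeletal-lineage cells, -0.12 with the unnamed clusters, -0.24 with the 10 genes among the variable genes, and -0.69, -1.02 and -1.51 in clusters 2, 3 and 4. On day 19, Igf1r was -0.42 in cluster 21, Dlk1 was -0.30 and -1.31 in clusters 3 and 4, Igfbp5 was -0.39 in cluster 2 and Igfbp7 was -0.18 in cluster 3. Within counting error, Igfbp5 also turned on day 13 in clusters 2 (-0.08) and 5 (-0.42) and on day 19 in cluster 21 (-0.26), Igf1r on day 13 in cluster 3 (0.23) and on day 19 in cluster 5 (-0.29), and Igf1 (-0.08) and Igfbp3 (-0.30) on day 19 in cluster 2. Age ratios (day 19 over day 13) in the mutant turned beyond counting error for Igf1 (-0.12 with the unnamed clusters, -0.42 with the 10 genes among the variable genes, -1.99 in cluster 2), Igfbp5 (0.44 in cluster 3), Igfbp6 (-0.43 in cluster 5) and Igfbp7 (-0.47 in cluster 4). In the wild type they turned for Igfbp5 (-0.16 without cells with a fibroblast marker UMI, -0.14 in cluster 2, -3.78 in cluster 5) and Igfbp6 (-2.14 in cluster 5). The cause was not tested. Depth limits Igfbp3, with 2 UMIs in the wild type of day 19, and every result rests on 1 library per group.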
